A study of Mus musculus with 24 samples.

Results

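The 44 collagen genes described here are all rows of the deposited expression table whose gene symbol reads Col, a number, the letter a and a second number. The table holds 21833 genes, and the rule looks at the symbol alone, so no measured value chose a member. All 44 symbols and identifiers were found in the GENCODE M39 annotation of GRCm39. The samples were mouse adrenal glands and neuroblastomas, with 24 poly(A) RNA-seq libraries in 4 groups. AG (n = 3) were adrenal glands of Cre-negative mice. AGM (n = 5) were adrenal glands without a tumor from MYCN +/-, Cre-positive mice. TI (n = 8) were tumors with the IGF2BP1 transgene and Cre, of which 1 was labelled +/- and 7 +/+. TIM (n = 8) were tumors labelled IMP1/MYCN with Cre, where IMP1 is an older name of IGF2BP1 and the number of transgene copies is not given. The source label read tumor for 7 TI and 5 TIM samples, tumor adrenal gland for 1 TI and 2 TIM, and tumor spine for 1 TIM. Columns could not be matched to these labels, so tumor against gland and tissue site cannot be told apart. In the mice with Cre, a transgene placed at the Rosa26 locus was switched on by an iCre driven by Dbh, a gene of noradrenaline-producing cells, and the IGF2BP1 transgene lacked its 3′ untranslated region. All animals shared a C57Bl6/N background, and the labels give no age. In the paper, MYCN mice were kept longer than homozygous IGF2BP1 mice, and IGF2BP1/MYCN mice had the shortest median survival. Age and group therefore cannot be told apart in TIM against AGM or TIM against TI. The table names the group of each column but not which sample it was, so libraries are numbered here by column order (TI library 4 is the fourth TI column), and these numbers are not those of the labels.

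Collagens are triple helices of 3 chains, each chain the product of its own gene. Fibril-forming types such as type I and type III give tissue its tensile strength. Type IV builds the sheet of the basement membrane under epithelia and around vessels, and type VI forms beaded filaments close to cells. Fibril-associated, transmembrane and short-chain collagens decorate fibrils, span the cell membrane or form local networks. Fibroblasts, pericytes, smooth muscle, endothelial and Schwann cells are known producers, and in neuroblastoma the amount of stroma around the tumor cells differs widely between tumors.

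Values are FPKM, fragment counts scaled to gene length and to a library size adjusted across libraries (TMM), not to each library's own total. AG library 1 held 1610 Col1a1 fragments at 2.29 FPKM and 17467197 fragments in all. TIM library 4 held 4146 at 4.73 FPKM and 888626365 in all. Levels of different genes can be set side by side per length, but 1 FPKM is a level on this adjusted scale. The libraries held between 12334076 and 23683176 fragments outside the 126 genes that passed 1000 FPKM in any library, and no collagen was among those 126. With those genes, the fragments implied by the table came to at most 21353172 in AG and TI but ran from 58530450 in TIM to 1170004708 in AGM. A list of 5 pancreatic acinar markers summed to at most 3.39 FPKM in AG and TI and reached 385600 in AGM library 2 and 3586000 in TIM library 4. The part of these values in the collagen results was not tested beyond the scalings given with AGM. The mouse Igf2bp1 row lay at or below 0.0796 FPKM in every library, and the mouse Mycn row reached 0.823 in AG, 1.19 in AGM, 15.6 in TI and 4.38 in TIM, so these rows do not check the transgene labels. Adrenal cortex markers (Cyp11a1, Cyp11b1, Star, Nr5a1, Hsd3b1) summed to between 503 and 532 FPKM in AG and between 2339 and 3116 in AGM, and to at most 7.02 in TI and 5.82 in TIM. The noradrenergic markers Phox2a, Th, Dbh and Chga summed to at least 75.1 FPKM in every library. Sequencing run and group cannot be told apart for AGM or TIM against AG, since AG came from run 1 and no AGM or TIM sample did. Run was also uneven between the other groups compared. In TI, 6 samples came from run 1, 1 from run 2 and 1 from run 3. In TIM, 3 samples came from run 2 and 5 from run 3, while all 5 AGM samples came from run 2. Columns could not be matched to runs, so the part of run in TIM against TI or TIM against AGM was not tested.

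Summed over the 44 genes, collagen RNA was narrow in the glands and wide in the tumors. The sum was 62.1, 55.9 and 56.6 FPKM in the 3 AG libraries and 71.2, 77.2, 61.4, 78.3 and 81.5 in the 5 AGM libraries. In TI it ran from 27.2 over a median of 41.9 to 260 FPKM, and in TIM from 12.3 over a median of 59.4 to 146. Both tumor groups therefore overlapped the glands on either side. TI library 4 held the highest TI value for 26 of the 44 genes, and TIM library 8 the lowest TIM value for 27. In bulk tissue, fewer collagen-producing cells and less RNA per cell cannot be told apart.

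**Figure D1:**
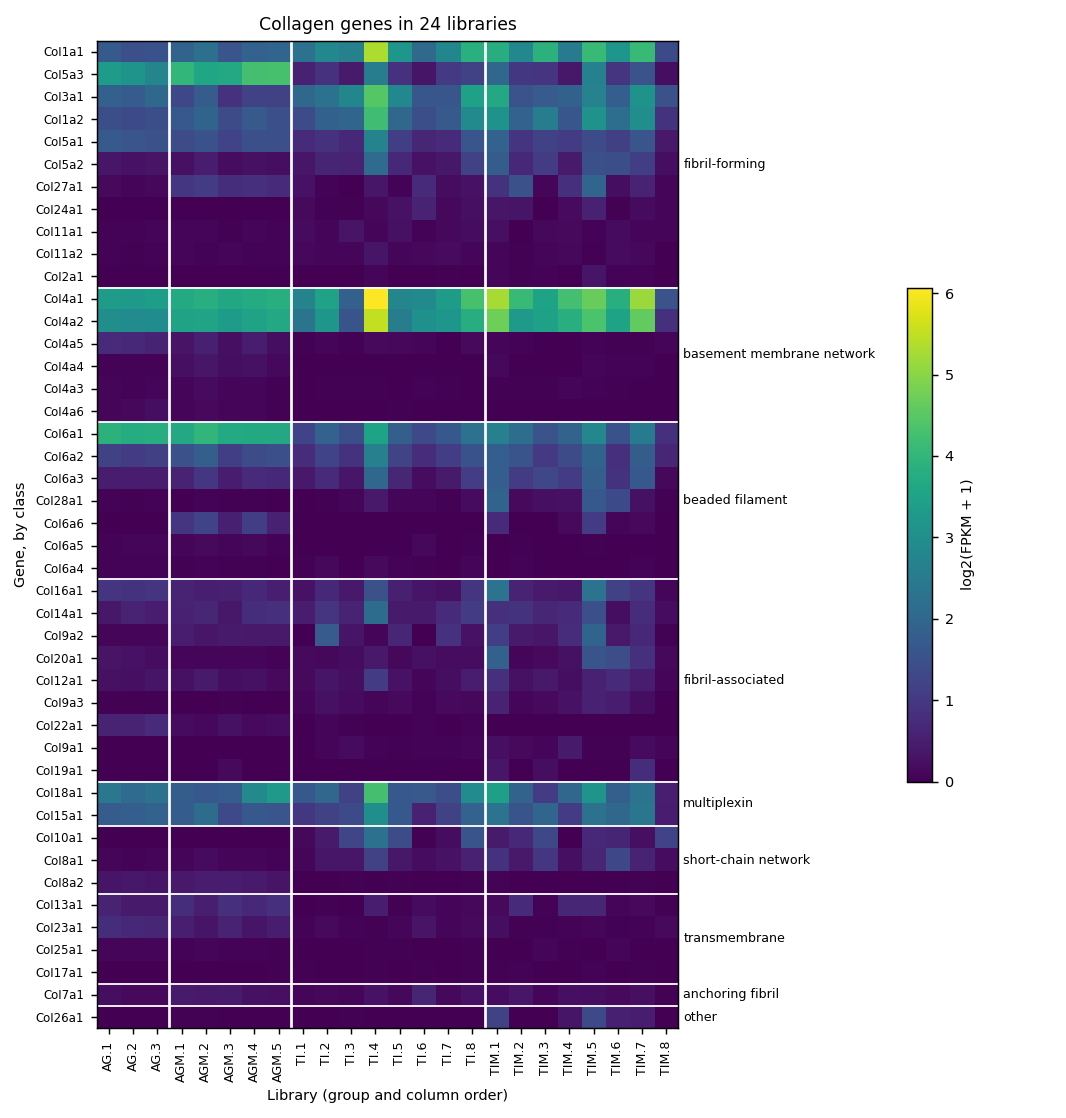
Level of each of the 44 collagen genes (rows, grouped by class) in each of the 24 libraries (columns, in the order AG, AGM, TI, TIM), coloured by log2(FPKM + 1). Col4a1, Col4a2 and Col1a1 are brightest in TI library 4, Col5a3 and Col6a1 are brighter in the glands than in most tumors, and TIM library 8 has the lowest TIM value for 27 of the 44 genes.

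Of the 44 genes, 21 reached 1 FPKM in at least 3 libraries and entered the main test, limma on log2(FPKM + 1) over 10171 genes with Benjamini-Hochberg FDR below 0.05. Of these 21, 2 rose and 2 fell in TI against AG, where 24.6% of all genes tested were higher and 27.7% lower. In TIM against AG 1 rose and 2 fell, beside 22.5% and 28.5% of all genes. In TIM against AGM 5 rose and 3 fell, beside 31.9% and 33.4%. Each count is a smaller share of the 21 genes than the same call took of all genes. Of the genes called, Col10a1, Col20a1, Col28a1 and Col5a2 reached 1 FPKM in tumor libraries alone and Col6a6 in AGM libraries 2 and 4 and TIM library 5 alone. These 5 entered the test through the groups where they were high, so their calls are a description and support nothing. The median difference over the 21 genes was 0.13 (log2) in TI against AG, 0.53 in TIM against AG and 0.30 in TIM against AGM, where the medians over all genes were -0.0021, -0.0049 and 0.033. Besides the genes named above, Col14a1, Col16a1, Col6a3 and Col9a2 reached 1 FPKM in tumor libraries alone. The filter can therefore tilt the collagen medians toward the tumors, and they are a description that supports nothing. TI against AG and TIM against AG share the same 3 AG libraries.

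Among fibril-forming collagens, the major chain of type I was higher in the tumors. Col1a1 (chr11:94827050-94843868, plus strand) encodes the α1(I) chain, of which the common type I molecule holds a pair. It measured 2.29, 1.81 and 1.88 FPKM in AG and 2.82, 3.74, 2.03, 2.77 and 2.97 in AGM. In TI it ran from 3.31 over a median of 6.0 to 39.1 FPKM, and in TIM from 1.55 over 10.4 to 16.1. Every TI library lay above every AG library, whereas TIM library 8 lay below all glands. The difference was 1.55 ± 0.54 (log2, SE; FDR = 0.0198) in TI against AG, 1.64 ± 0.54 (FDR = 0.0146) in TIM against AG and 1.28 ± 0.46 (FDR = 0.0175) in TIM against AGM. Without AG library 2 or without AG library 3 the TI call was lost (FDR = 0.0644 and 0.0615), and without AG library 2 so was the TIM call (FDR = 0.0515).

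Col5a3 (chr9:20681337-20726418, minus strand), the α3 chain of type V collagen, went the other way. Its level was 9.30, 7.78 and 5.78 FPKM in AG and 15.2, 10.9, 11.7, 18.5 and 18.8 in AGM, higher than any other fibril-forming chain in the glands. The tumors ran from 0.266 over 0.818 to 4.96 FPKM in TI and from 0.162 over 0.941 to 5.36 in TIM, so that no tumor library reached a gland. It fell by 2.11 ± 0.43 (log2, SE; FDR = 0.000264) in TI against AG and by 1.87 ± 0.43 (FDR = 0.000906) in TIM against AG. The largest difference of the 21 genes, -2.75 ± 0.36 (FDR = 7.92e-07), was that of TIM against AGM.

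The 250 bases upstream of the canonical start of these opposite movers are shown in the gene's own orientation (GRCm39, no annotated exon inside), since Col1a1 rose and Col5a3 fell in the same tumors. Capitals mark CCAAT boxes (CCAAT or ATTGG) and GC boxes (GGGCGG or CCGCCC).
Col1a1, chr11:94826800-94827049: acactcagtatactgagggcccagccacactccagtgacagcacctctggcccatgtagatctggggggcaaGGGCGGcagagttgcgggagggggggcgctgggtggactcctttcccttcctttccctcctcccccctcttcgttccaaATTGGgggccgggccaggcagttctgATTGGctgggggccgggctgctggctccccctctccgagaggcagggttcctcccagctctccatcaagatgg
Col5a3, chr9:20726419-20726668: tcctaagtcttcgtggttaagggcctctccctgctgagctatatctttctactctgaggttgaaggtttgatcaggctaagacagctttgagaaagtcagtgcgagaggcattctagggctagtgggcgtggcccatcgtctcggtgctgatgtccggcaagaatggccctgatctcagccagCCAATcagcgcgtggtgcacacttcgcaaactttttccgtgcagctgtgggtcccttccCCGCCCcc
Col1a1 held a pair of CCAAT boxes, starting 99 and 73 bases before the start site, and a GC box at 178. Col5a3 held a CCAAT box at 67 and a GC box at 8. Over all 44 genes, on either strand, 15 windows held CCAAT (34.1%), 21 held GGGCGG (47.7%) and 7 held TATAAA (15.9%), and the same motifs stood in 35.9%, 39.4% and 10.3% of the windows of 19361 other genes. A match is a description of letters and not a binding site.

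The other fibril-forming chains were less separated. Col3a1 (chr1:45350698-45395840), the only chain of type III, measured 2.63, 2.41 and 3.14 FPKM in AG and 1.49, 2.38, 0.813, 1.30 and 1.26 in AGM. It ran from 2.08 over 4.85 to 20.9 FPKM in TI and from 1.85 over 2.60 to 11.7 in TIM. Col3a1 was higher in TIM than in AGM by 0.98 ± 0.41 (log2, SE; FDR = 0.0404), while TI against AG gave 0.75 (95% interval -0.26 to 1.76, FDR = 0.208). Leaving out 1 library ended that call for 4 AGM and 3 TIM libraries (FDR up to 0.0908). Col5a2, its tail-to-tail neighbour and the α2 chain of type V, measured 0.281, 0.236 and 0.245 FPKM in AG and 0.204, 0.405, 0.143, 0.208 and 0.172 in AGM, with medians of 0.529 in TI and 1.14 in TIM. Its TIM libraries ran from 0.160 to 2.48 FPKM, and the TIM against AGM difference was 0.74 ± 0.27 (FDR = 0.0184). Col5a1, the α1 chain that most type V molecules need, did not pass the test in any of the 5 comparisons with all libraries in. Without TI library 4 it was called lower in TI than in AG (-0.70, FDR = 0.0138).

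Of the 44 genes, the type IV chains Col4a1 and Col4a2 had the highest and second highest median level in both tumor groups, with a wide spread. Col4a1 and Col4a2 (chr8:11248423-11362826 and chr8:11362471-11499287) encode the 2 widespread type IV chains and lie head to head, with gene bodies that overlap at their starts. Col4a1 measured 9.19, 8.78 and 9.40 FPKM in AG and between 11.4 and 13.2 in AGM, but from 2.66 over 7.77 to 66.0 in TI and from 1.94 over 17.0 to 37.6 in TIM. Neither chain passed the test, with Col4a1 at 0.10 (95% interval -1.27 to 1.46, FDR = 0.957) in TI against AG and 0.70 (-0.66 to 2.06, FDR = 0.393) in TIM against AG. These intervals leave room for a difference of more than 1 log2 unit in either group. Per library the basement membrane class made up a median of 28.9% of collagen FPKM in AG, 32.2% in AGM, 37.1% in TI and 41.2% in TIM. The fibril-forming class made up 28.6% in AG, 33.8% in AGM, 37.3% in TI and 30.8% in TIM. The genes of this paragraph were named after their values were seen.

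Among the beaded-filament collagens, Col6a1 (chr10:76543440-76562283, minus strand) fell in both tumor groups. It encodes the α1(VI) chain and measured 13.8, 12.4 and 12.7 FPKM in AG, the highest level of any collagen there, and between 11.6 and 14.9 in AGM. TI ran from 1.34 over 2.38 to 10.4 FPKM and TIM from 0.766 over 3.17 to 5.96, below every gland library. The difference was -1.90 ± 0.38 (log2, SE; FDR = 0.000236) in TI against AG, -1.81 ± 0.38 (FDR = 0.000407) in TIM against AG and -1.74 ± 0.32 (FDR = 6.95e-05) in TIM against AGM. Without TI library 4 the TI against AG difference was 1.23 for Col1a1 (FDR = 0.0234), -2.34 for Col5a3 (FDR = 1.67e-05) and -2.13 for Col6a1 (FDR = 5.07e-06). Without TIM library 8 the TIM against AG difference was 1.91 for Col1a1 (FDR = 0.00211), -1.73 for Col5a3 (FDR = 0.00154) and -1.64 for Col6a1 (FDR = 0.000505). Of the other type VI chains tested, Col6a2 and Col6a3 did not pass the test in these comparisons. Col6a2 lay at a mean of 1.20 ± 0.11 FPKM (SD, n = 3) in AG, 1.65 ± 1.5 (n = 8) in TI and 1.72 ± 0.87 (n = 8) in TIM, and Col6a3 at 0.377 ± 0.0063, 0.833 ± 0.987 and 1.48 ± 0.87. The beaded-filament class made up a median of 25.1% of collagen FPKM in AG and 21.0% in AGM, against 9.19% in TI and 9.81% in TIM.

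**Figure D2:**
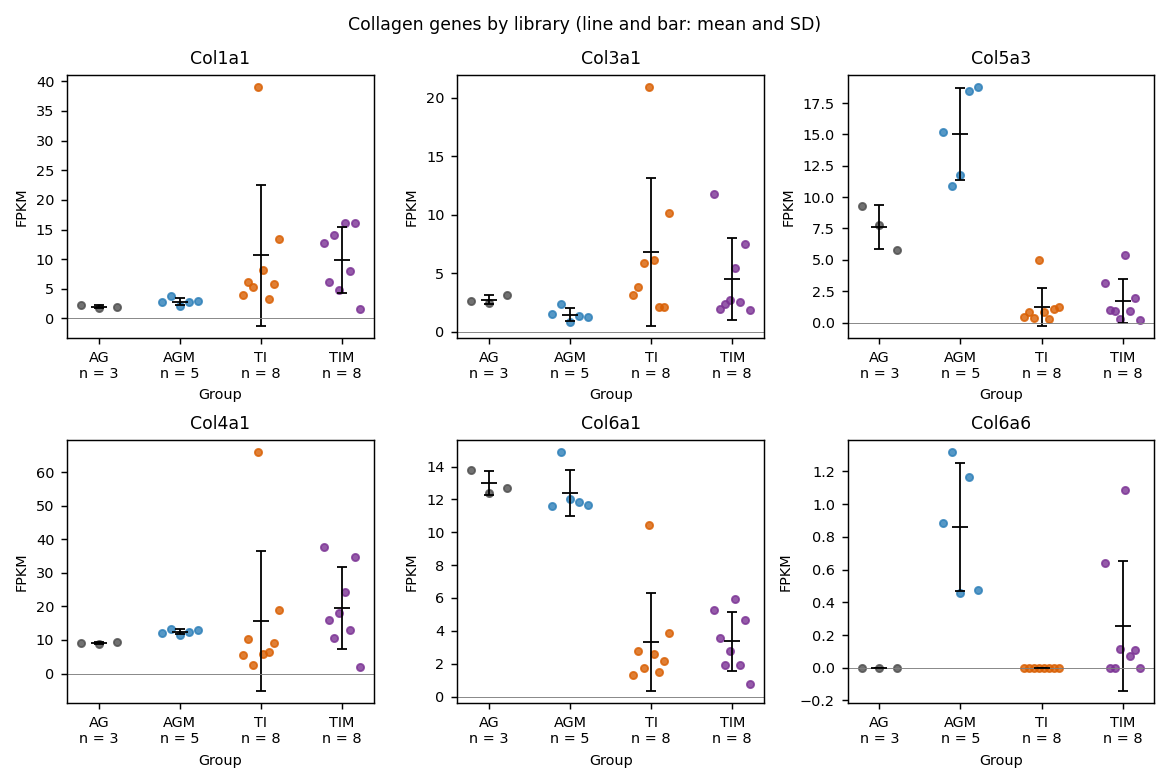
FPKM of 6 collagen genes in each library by group, with the mean and SD as line and bar. Col5a3 and Col6a1 have every tumor library below every gland library, Col1a1 has every TI library above AG, Col4a1 spreads from 1.94 to 66.0 FPKM in the tumors, and Col6a6 is near 0 in AG and TI.

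**Figure D3:**
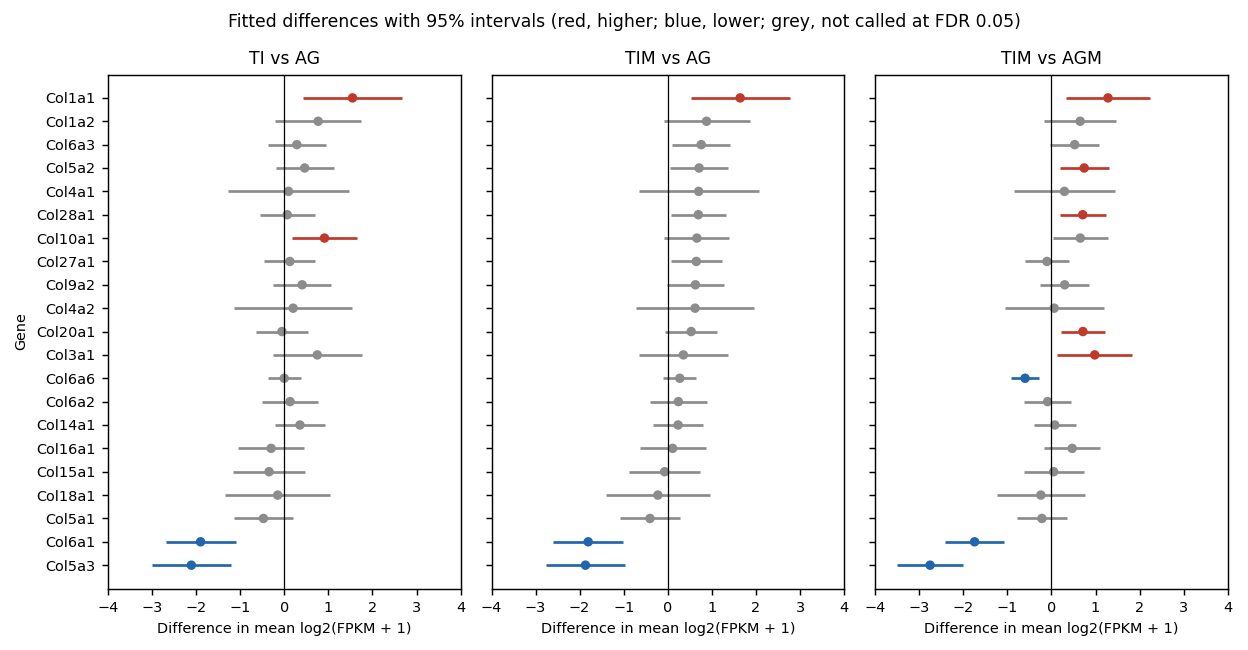
Fitted difference in mean log2(FPKM + 1) with its 95% interval for the 21 collagen genes tested, in TI against AG, TIM against AG and TIM against AGM. Col1a1 lies above 0 and Col5a3 and Col6a1 below 0 with FDR under 0.05 in all 3, while the intervals of Col4a1 and Col4a2 cross 0.

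The ratios of Col1a2 to Col1a1, Col6a2 to Col6a1, Col6a3 to Col6a1 and Col5a2 to Col5a1 did not overlap between glands and tumors. The ratios are given as a description with no test, and they depend on the gene lengths of the table (12426 bases for Col1a2 and 6563 for Col1a1). Col1a2 to Col1a1 was 0.848 ± 0.088 (SD, n = 3) in AG and 0.757 ± 0.088 (n = 5) in AGM, against 0.453 ± 0.065 (n = 8) in TI and 0.468 ± 0.077 (n = 8) in TIM. The lowest gland value was 0.606 and the highest tumor value 0.603. Within TI the ratio varied 1.49-fold between its lowest and highest library, while the level of Col1a1 varied 11.8-fold. Col4a2 to Col4a1 was 0.739 ± 0.024 in AG, 0.837 ± 0.0365 in AGM, 0.810 ± 0.153 in TI and 0.696 ± 0.171 in TIM, so the groups overlapped. Col6a2 to Col6a1 stood at 0.0926 ± 0.0050 in AG and 0.143 ± 0.029 in AGM, and at 0.500 ± 0.023 in TI and 0.537 ± 0.095 in TIM, with no overlap between glands and tumors. Between its lowest and highest library it varied 1.12-fold in TI and 1.74-fold in TIM, where the Col6a1 level varied 7.79-fold and 7.77-fold, but 1.76-fold in AGM, where the level varied only 1.29-fold. Of the third type VI chain, Col6a3 to Col6a1 was less tight, from 0.0949 to 0.302 in TI and from 0.122 to 0.745 in TIM. It ran from 0.0277 to 0.0305 in AG and from 0.0333 to 0.0629 in AGM. Col5a2 to Col5a1 was at most 0.133 in AG and 0.214 in AGM, and at least 0.39 in TI and 0.322 in TIM. Col6a3 to Col6a2 and Col5a3 to Col5a1 overlapped between glands and tumors.

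**Figure D4:**
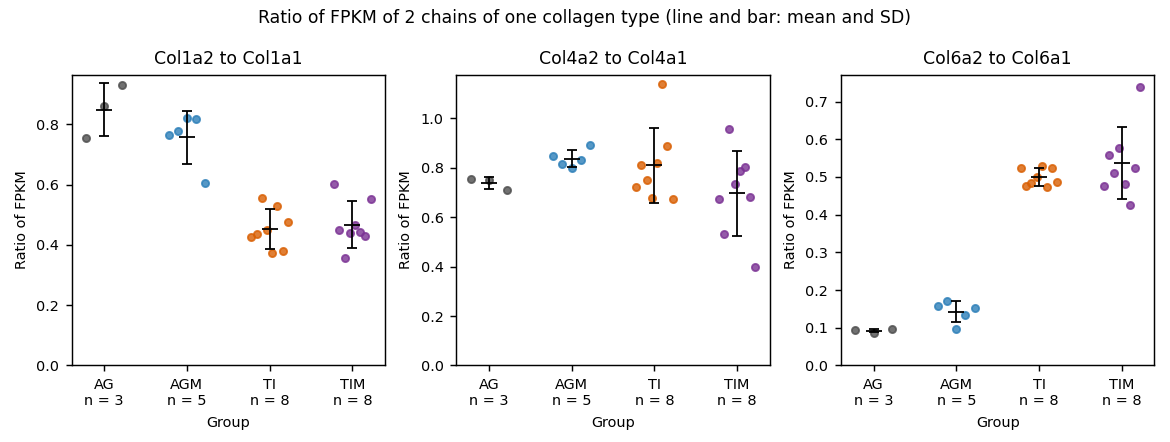
Ratio of the FPKM of 2 chains of the same collagen type in each library by group, with mean and SD. Col1a2 to Col1a1 is at or above 0.606 in the glands and at or below 0.603 in the tumors, Col6a2 to Col6a1 is at most 0.172 in the glands and at least 0.425 in the tumors, and Col4a2 to Col4a1 overlaps.

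Below the filter lay 23 collagen genes, a group that includes 4 of the 6 type IV chains and all 4 transmembrane collagens. Their levels were low on the FPKM scale, but fragments could be counted, because the FPKM values were whole multiples of the value of 1 fragment. These fragments are those of batch-adjusted values and not observed reads. They were tested with limma-voom on those fragments over 16221 genes, and by an exact two-sided permutation test of mean FPKM in the 5 comparisons, 115 tests in all. In TI against AG 9 of the 23 fell and 3 rose by limma-voom, where 26.6% of all genes were lower and 19.1% higher. In TIM against AG 8 fell and 4 rose, beside 28.6% and 16.4%. In TIM against AGM 11 fell and 4 rose, beside 32.6% and 23.4%. The genes named from this set were picked after their values were seen.

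Of the 4 minor type IV chains, limma-voom called Col4a5 and Col4a6 lower in both tumor groups against AG and Col4a4 in TI alone. Col4a3 was not called against AG (limma-voom FDR = 0.0769 in TI and 0.091 in TIM). Its means were nonetheless lower than in AG, with an exact permutation p of 0.00606 in TI and 0.0303 in TIM. Every TI library lay below every AG library for Col4a3. Col4a5 (chrX:140258354-140472231), a chain of specialised basement membranes such as that of the kidney filter, measured 0.685, 0.597 and 0.502 FPKM in AG, with 358 to 494 fragments, and between 0.173 and 0.455 in AGM. No tumor library passed 0.114 FPKM, and the median was 0.0671 in TI and 0.0291 in TIM. It fell by 3.85 ± 0.61 (log2, SE; limma-voom FDR = 1.79e-05) in TI and by 4.44 ± 0.64 (FDR = 5.56e-06) in TIM against AG, with an exact permutation p of 0.00606 in each, the smallest that 165 splits allow. Its head-to-head neighbour Col4a6 fell too, from a mean of 0.111 FPKM in AG to 0.00900 in TI and 0.00229 in TIM (limma-voom FDR = 1.2e-05 and 4.51e-07). Col4a4 fell in TI against AG (FDR = 0.00369) and in TIM against AGM (FDR = 7.47e-05). Col4a3 was lower in TIM than in AGM too (limma-voom FDR = 0.026).

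Fibril-associated, transmembrane and short-chain members were also among those that fell. Col22a1, a fibril-associated collagen of tissue junctions, went from 0.484, 0.516 and 0.645 FPKM in AG to 0.127, 0.0899, 0.200, 0.104 and 0.147 in AGM, at most 0.0530 in TI and at most 0.0103 in TIM. It was the only member below the filter that limma-voom also called in AGM against AG (-2.09 ± 0.33, FDR = 0.000186), and it was lower in TIM than in TI as well (-2.32 ± 0.59, FDR = 0.00959). Col23a1, a transmembrane collagen, fell from 0.744, 0.616 and 0.575 FPKM in AG to medians of 0.0624 in TI and 0.0385 in TIM (FDR = 9.12e-07 and 2.29e-07). Col8a2, a short-chain collagen of vessel and corneal membranes, measured 0.277 to 0.309 FPKM in AG and 0.250 to 0.398 in AGM, and none of the 16 tumors passed 0.0336. The exact permutation p was 0.00606 for Col22a1, Col23a1 and Col8a2 in TI against AG and again in TIM against AG.

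Other low members were detected in tumors alone or nearly so. Col24a1, a fibril-forming chain, had at most 3 fragments in any gland library, and ran from 0.0170 to 0.488 FPKM in TI and from 0.00970 to 0.480 in TIM. By limma-voom it was higher in TI (FDR = 0.0271) and TIM (FDR = 0.0287) than in AG, while the exact permutation p was 0.109 and 0.0667. Col9a1, a chain of cartilage type IX collagen, had at most 1 fragment in the glands and up to 67 in TI and 236 in TIM (limma-voom FDR = 0.00542 and 0.000778 against AG, exact permutation p = 0.0485 and 0.0848). Col24a1 and Col9a1 reached the 10 fragments needed for limma-voom in tumor libraries alone. Their limma-voom calls are therefore a description and support nothing. In AGM all 5 libraries held 0 fragments, and the TIM mean of Col9a1 was 86.6-fold above a floor of 3 fragments over the group. The fragments come from batch-adjusted values, so this floor sets no lower bound for the fold. Col10a1, a short-chain collagen of growth cartilage that passed the main filter, held 0 fragments in AG and at most 1 in AGM. It ran from 0.0273 over 0.894 to 3.80 FPKM in TI and from 0 over 0.587 to 1.49 in TIM. The mean was 391-fold above the AG floor in TI and 215-fold in TIM, again with no lower bound set. The limma difference for Col10a1 was 0.91 ± 0.36 (FDR = 0.0354) in TI against AG, a call that ended when AG library 1, 2 or 3 was left out (FDR up to 0.0879) or without TI library 3, 4, 5 or 8 (FDR up to 0.0595), and that limma-voom did not make (FDR = 0.099). The cartilage markers Acan, Matn1, Comp and Sox9 summed to between 0.347 and 0.555 FPKM in AG, to at most 3.12 in AGM and to at most 0.442 in TI. In TIM the sum reached 15.1 in library 5, nearly all of it Comp (15.08 FPKM), with Acan and Matn1 at 0.

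**Figure D5:**
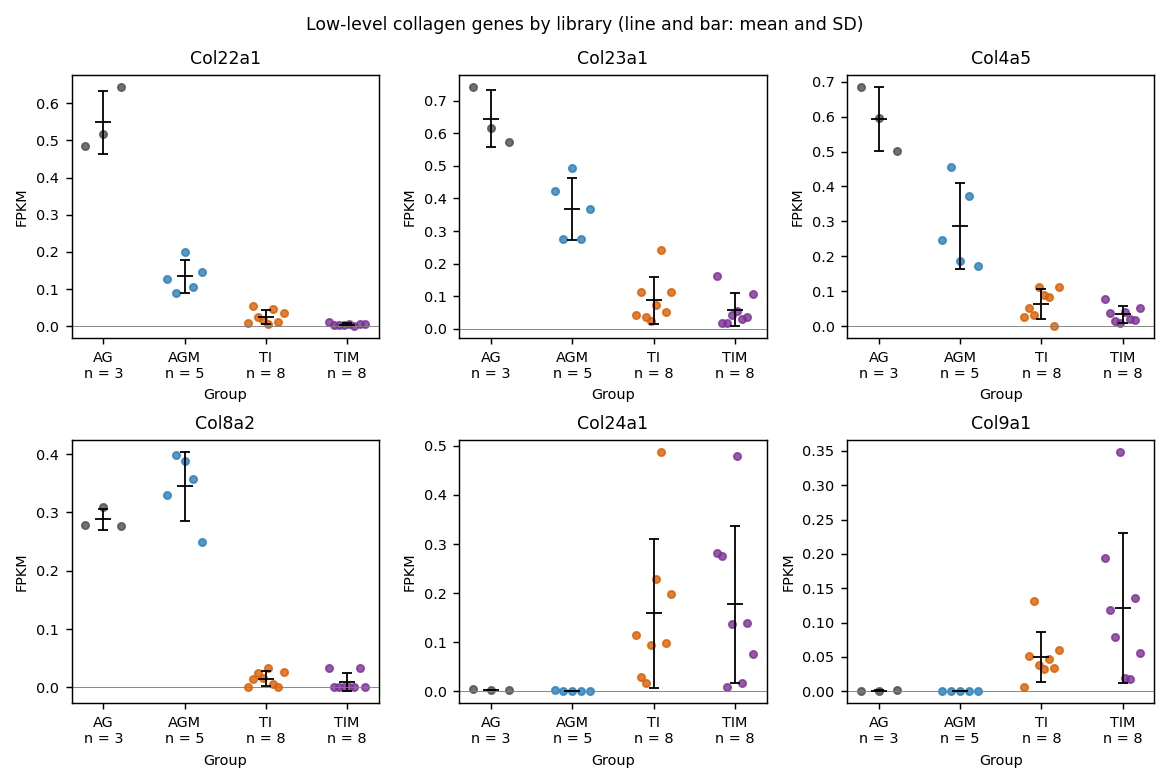
FPKM of 6 collagen genes of low level in each library by group, with mean and SD. Col22a1, Col23a1, Col4a5 and Col8a2 are lower in every tumor than in every AG library, and Col24a1 and Col9a1 are at or near 0 in all 8 glands.

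AGM against AG compared tumor-free glands with and without the MYCN transgene and Cre. Of the 21 genes tested 1 rose and 0 fell by limma (14.6% and 14.0% of all genes), with 2 of the 21 at an unadjusted p under 0.05. Of all 44, limma-voom called 1 higher and 1 lower, beside 1340 higher and 1593 lower of 16221 genes. The gene that rose was Col6a6 (chr9:105564724-105705561), a type VI chain. It held exactly 1 fragment in each AG library and at most 1 in TI, against 657, 1111, 337, 928 and 366 fragments in AGM, or 0.884, 1.32, 0.458, 1.17 and 0.477 FPKM. In TIM it ran from 0 to 907 fragments. The difference was 0.87 ± 0.19 (log2, SE; FDR = 0.00179), and Col6a6 was lower in TIM than in AGM (-0.60 ± 0.15, FDR = 0.00159). Of all genes, 489 had at most 10 fragments in every AG and TI library and at least 1000 in an AGM or TIM library, and Col6a6 was the only collagen among them. The values of all runs had been batch-adjusted before deposit, and the part of that step in Col6a6 was not tested. Scaling matters in this comparison, since leaving the 126 high genes out of the totals moved the median of all genes from -0.0023 to -0.27 (log2) and the split of calls from 1488 higher and 1420 lower to 932 and 3480, and scaling by median ratios gave 1769 and 1002. The collagen count stayed at 1 under both.

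Between the tumor groups, TIM was called higher than TI in 2 of 21 genes and lower in 0, beside 10% and 12.9% of all genes. Col28a1 (chr6:7997102-8192617), a beaded-filament type known from Schwann cells, ran from 0.0151 over 0.0556 to 0.339 FPKM in TI and from 0.0229 over 0.212 to 2.84 in TIM (0.63 ± 0.22, FDR = 0.044). Col20a1 (chr2:180628316-180660156), a fibril-associated type, ran from 0.0888 over 0.151 to 0.338 in TI and from 0.0666 over 0.503 to 2.62 in TIM (0.58 ± 0.21, FDR = 0.0476). TIM libraries 1, 5 and 6 were the 3 highest for both genes, at 2.84, 2.16 and 1.56 FPKM for Col28a1 and 2.62, 1.97 and 1.72 for Col20a1. The Schwann and sustentacular markers Sox10, S100b and Erbb3 summed to 12.8, 21.6 and 2.02 FPKM in these 3 libraries, with 2, 3 and 1 of the 3 at 1 FPKM or more, to at most 1.2 in the other TIM and all TI libraries, and to between 0.564 and 3.91 in the glands. The part of these cells in the result was not tested. Both calls ended when 1 of those 3 libraries was left out, whichever it was (FDR from 0.0749 to 0.104) and likewise for each TI library other than library 4 (FDR from 0.0508 to 0.0767), and Col20a1 also without TIM library 7 (FDR = 0.0631). Both genes passed the filter through these same 3 libraries. Neither gene was called by limma-voom (FDR = 0.0732 for Col28a1 and 0.157 for Col20a1), which instead called Col6a6 higher. Against AGM the differences were 0.71 ± 0.25 (FDR = 0.0173) for Col28a1 and 0.71 ± 0.24 (FDR = 0.0119) for Col20a1, and neither passed with only the groups compared (FDR = 0.0687 and 0.0557).

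A test of the difference between TIM against AGM and TI against AG called 0 of 21 collagens by limma. Of all genes, limma gave 3.85% a higher and 6.15% a lower difference. Limma-voom called 0 of 44 collagens, but only 62 higher and 149 lower of 16221 genes, so its 0 is nothing particular to collagens. By limma, 2 of the 21 had an unadjusted p under 0.05. Those 2 were Col6a6 (-0.60, 95% interval -1.08 to -0.11, limma FDR = 0.114) and Col20a1 (0.77, 0.0016 to 1.53, FDR = 0.213). For Col1a1 the difference was -0.26 (-1.73 to 1.20), and for Col4a1 it was 0.20 (-1.58 to 1.98).

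The counts of the lists that follow stand beside 27.7% of all genes lower and 24.6% higher in TI against AG, and 28.5% and 22.5% in TIM against AG, and with so few genes a list none is called particular. Of 19 listed genes for chain modification and folding 16 were tested, and 6 fell and 0 rose in TI against AG, 5 fell and 2 rose in TIM. Serpinh1, the collagen chaperone HSP47, measured 19.5, 18.7 and 21.8 FPKM in AG, with medians of 4.92 in TI and 8.35 in TIM (-1.63 ± 0.36, FDR = 0.000637, and -1.09 ± 0.36, FDR = 0.0154). Its 3 highest tumor values, 17.7 in TI library 4 and 17.3 and 16.6 in TIM libraries 1 and 5, fell in the libraries with the 3 highest collagen sums. Plod2, a lysyl hydroxylase for cross-link sites, went from a mean of 7.72 ± 0.99 FPKM in AG to 0.713 ± 0.210 in TI and 0.582 ± 0.276 in TIM (FDR = 1.35e-11 and 5.2e-12), and was lower in the tumor-free AGM glands as well, at 3.16 ± 0.84 FPKM (-1.09, limma FDR = 3.47e-05 against AG). Crtap, part of the prolyl 3-hydroxylase complex, also fell in both (-1.97 and -1.31). P4ha1, a prolyl 4-hydroxylase subunit, lay at 1.48, 1.49 and 2.01 FPKM in AG, TI and TIM and did not pass the test. Lox, which starts cross-linking, was below the filter with means of 0.154, 0.446 and 0.259 FPKM.

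Among 8 genes for propeptide removal 2 were tested, and Pcolce, the enhancer of the type I propeptide protease, measured 30.8 ± 1.5 FPKM in AG and 74.8 ± 12.6 in AGM but 1.03 ± 0.59 in TI and 2.24 ± 1.86 in TIM (-4.02 and -3.46 against AG, FDR = 4.92e-10 and 6.33e-09). Of 9 tested fibril partners 4 fell and 1 rose in TI, 4 fell and 0 rose in TIM. Dcn and Lum, small proteoglycans on fibrils, and Sparc, a collagen-binding matrix protein, fell in both, Sparc from 99.1 ± 5.3 FPKM in AG to 24.9 ± 24.0 and 36.4 ± 25.0, and Fn1, fibronectin, rose in TI (1.68 ± 0.56, FDR = 0.0144). Of 10 tested basement membrane partners 4 fell and 1 rose in each tumor group, with the laminin chain Lamb2 and perlecan, Hspg2, lower and agrin, Agrn, higher. Of 6 tested breakdown genes 2 fell and 0 rose in each, both inhibitors of matrix proteases, Timp3 (-2.65 and -1.84) and Timp1 (-0.61 and -0.74). Of 3 tested receptors Mrc2, which takes up collagen, fell in both (-0.50 and -0.51), Itgb1 fell in TIM (-0.66) and Ddr1 rose in TI (0.89). Neither of the 2 tested cross-linking genes passed the test. Of 9 tested TGF-beta genes 3 fell and 1 rose in TI and 5 fell and 1 rose in TIM, with Tgfbr2 (-1.53 and -1.44) and Smad3 (-1.30 and -1.13) lower and the ligand Tgfb3 higher (1.48 and 1.5).

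Cell type markers moved beside the collagens, and their part in the results was not tested. Their counts stand beside the same shares of all genes, 27.7% lower and 24.6% higher in TI and 28.5% and 22.5% in TIM. The fibroblast list (Pdgfra, Dcn, Lum, Dpt, Pi16, of which Dcn and Lum also count above) summed to between 20.2 and 24.7 FPKM in AG and between 4.61 and 9.72 in AGM. The tumors lay between 0.493 and 2.34 (TI) and between 0.124 and 6.13 (TIM), and 4 of 5 genes fell in each tumor group. The pericyte and smooth muscle list (Pdgfrb, Rgs5, Cspg4, Acta2, Myh11) was lowest in AG, with sums of 4.77 to 5.26 FPKM, followed by 9.05 to 13.0 for AGM. Its sums spread from 6.58 to 72.8 over the TI and from 7.81 to 27.4 over the TIM libraries, and Acta2 and Rgs5 rose in each, 2 of 3 genes tested. TI library 4, the highest for collagen, was also the highest for this list and for the endothelial list (Pecam1, Cdh5, Kdr, Tek, Emcn), at 19.8 FPKM against a TI median of 3.94. Endothelial genes fell in 3 of 5 in TI and 5 of 5 in TIM. The adipocyte list (Adipoq, Plin1, Cidec, Fabp4) summed to 50.8 to 228 FPKM in AG and to at most 2.27 in TI and 36.1 in TIM, and all 4 genes fell in both tumor groups.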

How the data were processed

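RNA was measured by poly(A), strand-specific sequencing in 24 libraries. Per the labels and the study's methods, the authors trimmed reads with cutadapt 2.8, aligned them to mm39 with HISAT2 2.1.0 and SAMtools 1.10, counted fragments per gene with featureCounts 2.0.0, adjusted the counts for sequencing run with ComBat-seq and deposited TMM-scaled FPKM values made with edgeR 3.40. Batch adjustment and pooled scaling can move low values and levels across groups. Columns name the group only, so each was used as a replicate without a number, and p-values measure the spread between these samples.

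From these values, log2(FPKM + 1) was fitted for 10171 genes, those that reached 1 FPKM in 3 or more libraries, over all 24 libraries with limma 3.58.1 (R 4.3.3, moderated with a trend, Benjamini-Hochberg, FDR below 0.05). Fold changes on this scale understate those of low genes. Whole fragments were recovered from the FPKM steps (100.0% of values within 0.01 of a whole number in every library) and fitted with limma-voom for the 16221 genes with at least 10 fragments in 3 libraries. Scripts were tested on simulated data. Genes given by library had a mean of at least 20 FPKM in a group, which none reached, or were among the 5 largest differences past the threshold in a comparison, and others are said to be chosen after their values were seen. Of each other list, the 3 largest differences were named, with Serpinh1, Lox, P4ha1 and Plod2. Members and lists were chosen with earlier results of these data known. Some genes of the marker lists are not reported here. Positions and upstream sequence come from GRCm39 with GENCODE M39. Alternatives were other pseudocounts, filters, scalings, weights and tools, and leaving out each library. Intervals and floors cover counting error only where they rest on fragments. Fragments were recovered from batch-adjusted values, so a floor gives no lower bound for observed reads.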

Additional observations from a re-analysis of the deposited data

Results flagged for a closer look

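Within groups of 5 or 8 libraries, 23 of 66 checks found a library whose gap to its nearest neighbour was large for its group's range. The cut-offs give about 1 in 20 by chance only for independent, normally spread values. These were FPKM of genes that share libraries, so 23 of 66 is not compared with that rate. Of these 23, 17 concerned TI library 4. It stood above the other TI libraries for the fibril-forming chains Col1a1 (39.1 FPKM), Col1a2 (17.6), Col3a1 (20.9), Col5a1 (5.6), Col5a2 (3.39) and Col5a3 (4.96). The same held for the type IV chains Col4a1 (66.0 FPKM) and Col4a2 (44.6), and for Col6a1 (10.4), Col6a2 (5.23), Col6a3 (3.16) and Col28a1 (0.339). It also held for Col14a1 (3.39 FPKM), Col15a1 (7.1), Col16a1 (1.85) and Col18a1 (18.3), and for the collagen sum (260 FPKM against a TI median of 41.9). Since 16 of these are genes of the same library, they are not separate observations.

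TIM library 5 stood apart for Col14a1 (1.8 FPKM) and Col9a2 (2.87), TI library 2 for Col9a2 (2.32) and TI library 6 for Col27a1 (0.672). AGM library 2 stood apart for Col5a2 (0.405 FPKM) and Col6a1 (14.9).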

How the results depend on the processing

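In TI against AG 4 of 21 were called, and 13 of 44 with no filter, 15 of 44 by limma-voom and 9 of 21 with array weights. In TIM against AG 3 became 6 with a pseudocount of 0.1, 13 with no filter and 15 with either limma-voom or array weights. In AGM against AG 1 became 2 with the smaller pseudocount or limma-voom, 5 with no filter, 0 when a whole group had to reach 1 FPKM, 8 with array weights and 9 with only the groups compared. In TIM against TI 2 became 1 with the smaller pseudocount, 0 with the group filter or only the groups compared, and 4 with array weights. With no filter Col20a1 and Col28a1 were both lost (FDR = 0.0664 and 0.0619), and Col26a1 alone was called, higher in TIM (0.48, FDR = 0.033). In TIM against AGM 8 became 21, 4 and 23 with no filter, the group filter and limma-voom. The difference between the comparisons gave 0, but 3 with no filter and 4 with array weights. Having no filter or using limma-voom raised the collagens tested from 21 to 44. By limma-voom 19.1% of all genes were higher and 26.6% lower in TI against AG. These shares were 16.4% and 28.6% in TIM against AG, and 23.4% and 32.6% in TIM against AGM. For the other settings no share of all genes is given here, so their counts are not read as results about collagens. The cause of the other changes was not tested.

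Leaving out 1 library gave 2 to 4 calls in TI against AG (2 without AG library 2 or 3), 2 to 8 in TIM against AG (8 without TIM library 8, 5 without TIM library 3, 4 or 6), 1 in AGM against AG, 0 to 4 in TIM against TI (0 without TI library 1, 2, 3, 5, 7 or 8 or TIM library 1 or 5, and 4 without TIM library 8), 7 to 10 in TIM against AGM and 0 to 1 for the difference. No call changed direction in any of these fits, while uncalled differences near 0 could change sign (Col4a1 in TI against AG ran from -0.28 to 0.32 with 1 library left out). Without TI library 4, TI against AG gave 4 calls, 1 higher (Col1a1) and 3 lower (Col5a1, Col5a3 and Col6a1). No paired analysis was possible because the columns carry no replicate number of the labels.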
